A study of Rattus norvegicus with 12 samples.

Results

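The miRNAs described here come from hairpins known to mature without the full canonical pathway. In that pathway the nuclease Drosha crops a hairpin from a primary transcript and the nuclease Dicer then removes its loop. The miRNAs were chosen by name: miR-320, miR-484, miR-877, miR-1224 and miR-451, with any arm suffix. The rule found 7 of the 685 miRNA names in tables of 805 small RNA names: rno-miR-320-3p, rno-miR-320-5p, rno-miR-484, rno-miR-877, rno-miR-1224, rno-miR-451-3p and rno-miR-451-5p, written below without the species prefix. Here 3p and 5p name the 2 arms of a hairpin. The small RNA came from primary cortical neurons of Sprague Dawley rats, prepared at embryonic day 17, transduced with lentivirus at 10 days in vitro and lysed at 14 days in vitro. The virus expressed a non-targeting control shRNA (shNTC), an shRNA against Stau2 (shStau2) or an shRNA against Pum2 (shPum2), each in 4 libraries that the labels number as biological replicates 1 to 4. All groups thus carried a virus and an shRNA, and no group without virus was analysed here. The sources used here do not give the promoter of the shRNA, its sequence or the number of animals pooled per culture.

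In the canonical pathway, Drosha with its partner DGCR8 releases the hairpin in the nucleus, and Dicer cuts it in the cytoplasm before an Argonaute protein takes up a strand. Mirtrons such as miR-877 and miR-1224 are short introns whose ends are set by splicing, so Drosha is not needed. The miR-320 hairpin is a short transcript with a 5′ cap that Dicer cuts but Drosha does not, and its 3p arm is the usual guide strand. The hairpin of miR-484 has been classed with that of miR-320 as a short hairpin independent of Drosha. In contrast, miR-451 is cropped by Drosha but is too short for Dicer, and Argonaute 2 itself slices it. That slicing yields miR-451-5p, a miRNA known from developing red blood cells, where it is transcribed together with miR-144. Staufen2, the product of Stau2, binds double-stranded RNA, and Pumilio 2, the product of Pum2, binds single-stranded motifs in mRNAs. The series asked how Staufen2 relates to the assembly of neuronal Argonaute complexes, so hairpins that reach Argonaute by other routes offer a contrast to the canonical ones.

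The RefSeq miRNA table, on assembly GRCr8, held 5 of the 7 mature sequences. They are shown 5′ to 3′ with the seed, bases 2 to 8, in capitals, because the seed sets which mRNAs a miRNA can pair with:
miR-484: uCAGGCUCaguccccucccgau
miR-877: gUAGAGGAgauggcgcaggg
miR-1224: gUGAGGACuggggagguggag
miR-451-5p: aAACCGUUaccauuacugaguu
miR-451-3p: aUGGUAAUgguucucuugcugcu
No seed was shared among these 5. The seed of miR-484 also occurred in 2 other mature entries of the table, miR-344-5p and miR-344a-5p, neither of which was among the names tested under that name. The seeds of the other 4 occurred in no other entry among the 693 mature names. GC content was 63.6% in miR-484, 65.0% in miR-877 and 66.7% in miR-1224, against a median of 47.8% over the table, and 36.4% in miR-451-5p.

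The hairpins show what sets these precursors apart, with the annotated mature arms in capitals:
Mir877: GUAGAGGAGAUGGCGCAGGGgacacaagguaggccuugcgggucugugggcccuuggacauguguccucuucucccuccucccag
Mir1224: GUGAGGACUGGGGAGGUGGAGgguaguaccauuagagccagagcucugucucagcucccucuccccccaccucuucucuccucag
Mir484: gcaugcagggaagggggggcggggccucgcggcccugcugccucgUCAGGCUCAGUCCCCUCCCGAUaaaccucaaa
Mir451a: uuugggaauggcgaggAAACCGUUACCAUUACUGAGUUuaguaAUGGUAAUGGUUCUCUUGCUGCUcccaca
Both mirtron hairpins began with GU and ended with AG, the bases at the ends of most introns, and in both the mature miRNA began at base 1. Of the 419 hairpins in the table, 4 began with GU and ended with AG (0.955%), 6 had a mature sequence at base 1 (1.43%), and only these 2 had both features (0.477%). In the GRCr8 gene table Mir877 (chr20:2816284-2816368, plus strand) lay inside Abcf1 and Mir1224 (chr11:93811291-93811375, minus strand) inside Vwa5b2. Mir484 (chr10:1394905-1394981, minus strand) lay next to Nde1, and Mir320a next to Polr3d, in both cases outside the annotated gene. The exons of these genes were not used here.

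The Mir451a hairpin (chr10:63459569-63459640, plus strand) had Mir144 as its neighbour. At 72 bases it was shorter than the median hairpin of the table, 88 bases. Its 2 annotated arms were 5 bases apart, against a median of 16, and 2 of the 263 hairpins with 2 placed arms (0.76%) had a gap of that size or less, Mir451a included. Its longest stem without interruption, counting A-U and G-C pairs, had 11 pairs around a loop of 6 bases, and the last 5 bases of miR-451-5p lay in that loop. Read across the loop, the miR-451-5p printed above thus begins in one side of the stem and ends before the other side starts.

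Libraries held between 3836349 and 5415763 counts, of which 3804798 to 5378626 were miRNA counts. Levels are given as CPM, counts per 1000000 miRNA counts of a library, after scaling by trimmed mean of M-values (TMM). A floor of 3 counts stood for 0.588 to 0.763 CPM, depending on the library. Mature miRNAs have nearly the same length and each count is a whole molecule or read, so levels of different names are set side by side without a length correction, although capture by the library kit can differ between sequences. The summed level of 5 neuronal miRNAs (miR-124-3p, miR-128-3p, miR-9a-5p, miR-137-3p and miR-138-5p) lay between 272000 and 337000 CPM over all libraries, and 0 of the 5 were called in any comparison with or without the replicate number as a block in the fit. The 3 astrocyte markers summed to 4360 to 7320 CPM for shNTC, 3000 to 5300 for shPum2 and 2510 to 3890 for shStau2. Without the block 0 of these 3 were called, and with it all 3 fell in shStau2 against shNTC (miR-21-5p, miR-23a-3p and miR-27a-3p) and miR-23a-3p fell in shPum2 against shNTC. The 4 vessel markers summed to 558 to 707 CPM for shNTC, 526 to 743 for shPum2 and 478 to 570 for shStau2, with 0 called without the block and miR-126a-5p lower in shStau2 against shNTC with it. Of all 628 names, 6.21% were called with the block in shStau2 against shNTC and 0.159% in shPum2 against shNTC. The part of these other cell types in the values below was not tested. Whether fewer cells of a type or less of a miRNA per cell lies behind a lower level cannot be told apart in such bulk samples.

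All 7 names together made up a small share of the libraries, 0.0424 to 0.0664% of the miRNA counts, or 1963 to 2955 counts per library. The order of levels over the 12 libraries was miR-320-3p with a mean of 374 CPM, miR-320-5p with 52.0, miR-1224 with 47.3, miR-484 with 37.8, miR-877 with 12.2, miR-451-3p with 6.72 and miR-451-5p with 0.698 CPM. The median name in the fit stood at 37.8 CPM, so miR-320-5p, miR-1224 and miR-484 were of middle abundance. By mean level, miR-320-3p ranked 119 of 628 and miR-451-3p ranked 483. The neighbours miR-320-5p and miR-1224 were not separated beyond their spread, since miR-320-5p was the higher in 9 of 12 libraries. For miR-1224 and miR-484 the first was higher in 11 of 12 libraries, and every other pair of neighbours kept its order in 12 of 12.

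**Figure D1:**
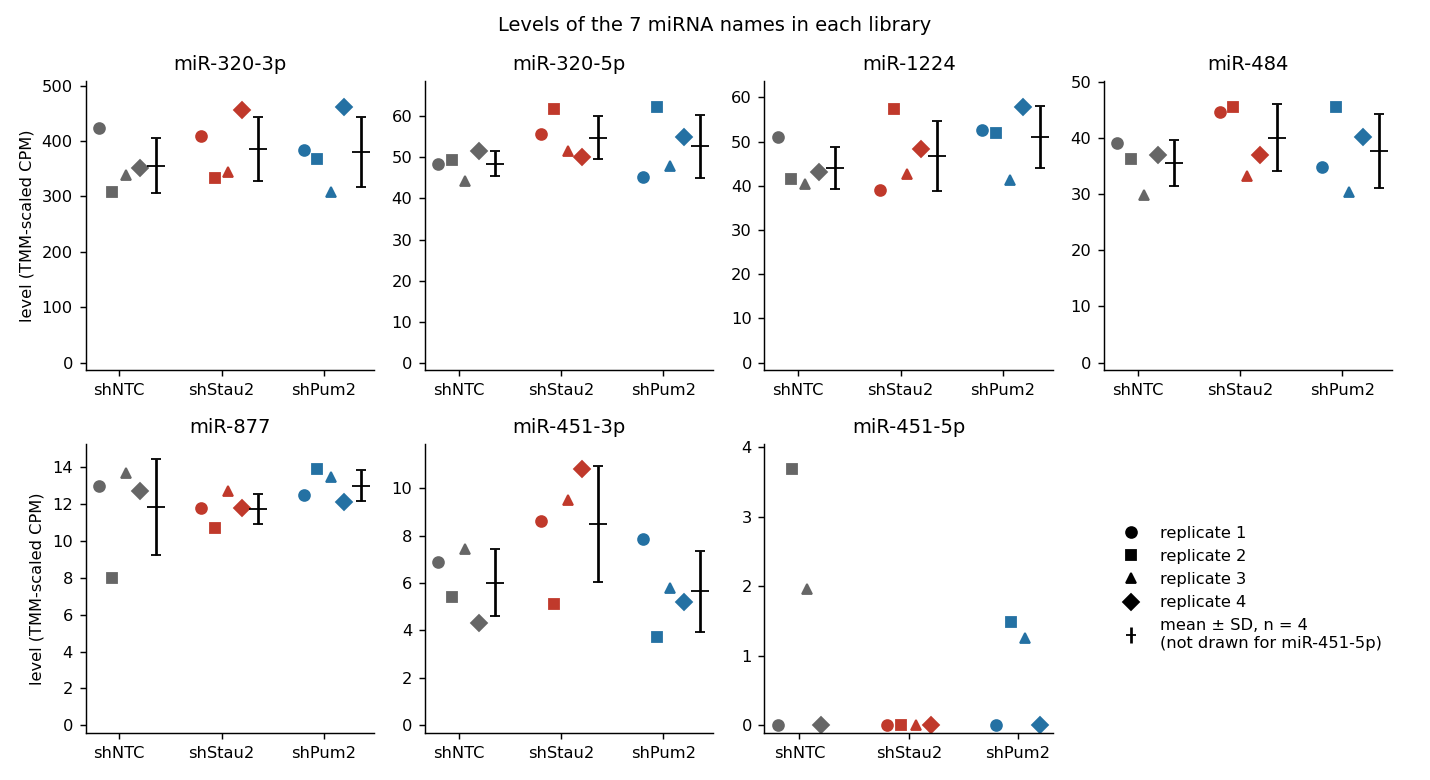
Level of each of the 7 names in each library, in TMM-scaled CPM (vertical axis, a separate scale per panel), by group (horizontal axis and colour) and replicate number (symbol), with the group mean ± SD (n = 4) beside the points except for miR-451-5p. The groups overlap in all 7 panels, miR-451-3p is highest in 3 shStau2 libraries, and miR-451-5p is above 0 in 4 libraries, none of them shStau2.

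The main guide of the capped hairpin, miR-320-3p, was read at 424, 307, 339 and 351 CPM in shNTC replicates 1 to 4. It stood at 409, 334, 344 and 456 CPM in shStau2 and at 383, 367, 308 and 462 CPM in shPum2. The highest library was replicate 4 in shStau2 and in shPum2 and replicate 1 in shNTC, and all groups overlapped. The shNTC mean was 355 ± 49.3 CPM, against 386 ± 57.0 for shStau2 and 380 ± 63.4 for shPum2 (SD, n = 4). The log2 fold change was 0.12 in shStau2 against shNTC (SE 0.14, edgeR quasi-likelihood adjusted p = 0.824), with a 95% interval from -0.18 to 0.42. In shPum2 against shNTC it was 0.10 (interval -0.20 to 0.40), and in shStau2 against shPum2 0.02 (interval -0.28 to 0.32). With 1379 to 2150 counts per library, counting error alone would give a coefficient of variation near 2.45%, and the observed values were 13.9% for shNTC, 14.8% for shStau2 and 16.7% for shPum2.

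The opposite arm miR-320-5p lay at 48.5, 49.3, 44.3 and 51.7 CPM in shNTC replicates 1 to 4, at 55.8, 61.9, 51.6 and 50.1 in shStau2, and at 45.3, 62.4, 48.0 and 55.1 in shPum2. Its highest values were those of replicate 2 in shStau2 and in shPum2, and the groups overlapped. The means were 48.4 ± 3.07, 54.9 ± 5.29 and 52.7 ± 7.69 CPM (SD, n = 4). It did not pass the test, with a log2 fold change of 0.18 in shStau2 against shNTC (SE 0.13, edgeR adjusted p = 0.632, interval -0.09 to 0.45) and 3 of 4 pairs of same-numbered libraries higher. The values were 0.12 in shPum2 against shNTC and 0.06 in shStau2 against shPum2.

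As is known for this hairpin, the 3p arm dominated. It made up 87.9 ± 1.55% of the counts of both arms for shNTC, 87.4 ± 2.37% for shStau2 and 87.7 ± 1.99% for shPum2 (SD, n = 4). Over the 12 libraries the share ran from 84.4% in shStau2 replicate 2 to 90.1% in shStau2 replicate 4, so the lowest and the highest share belonged to the same group. The group means lay within 0.5 percentage points of each other, less than the SD of any group.

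The other short hairpin of this class gave miR-484, at 39.2, 36.3, 29.8 and 36.9 CPM in shNTC replicates 1 to 4. In shStau2 the values were 44.7, 45.5, 33.2 and 36.9 CPM, and in shPum2 they were 34.9, 45.6, 30.3 and 40.2 CPM. Replicate 3 held the lowest value in each of the 3 groups, and the groups overlapped. Means were 35.6 ± 4.04, 40.1 ± 5.97 and 37.8 ± 6.60 CPM (SD, n = 4). In shStau2 against shNTC miR-484 stood higher in 4 of 4 same-numbered pairs, although replicate 4 was at 36.9 CPM in both groups as rounded. Its log2 fold change was 0.17 (SE 0.15, interval -0.15 to 0.50). It did not pass (edgeR adjusted p = 0.737, and adjusted p = 0.357 with the replicate number as a block). The other comparisons gave 0.09 each, with intervals from -0.24 to 0.41 for shPum2 against shNTC and from -0.23 to 0.41 for shStau2 against shPum2.

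Of the mirtrons, miR-1224 was the more abundant, at 51.0, 41.5, 40.4 and 43.0 CPM in shNTC replicates 1 to 4. It stood at 39.0, 57.3, 42.7 and 48.2 CPM in shStau2 and at 52.7, 52.0, 41.3 and 57.9 CPM in shPum2. The lowest and nearly the highest of the 12 values were both in shStau2. Means were 44.0 ± 4.82, 46.8 ± 7.94 and 51.0 ± 6.97 CPM (SD, n = 4). Its largest log2 fold change was that of shPum2 against shNTC, 0.21 (SE 0.15, edgeR adjusted p = 0.982, interval -0.10 to 0.52), higher in 4 of 4 same-numbered pairs. It was 0.09 in shStau2 against shNTC and -0.12 in shStau2 against shPum2, and none of the 3 passed.

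The Abcf1 mirtron miR-877 was rarer, with 37 to 70 counts per library. It lay at 13, 8, 13.7 and 12.7 CPM in shNTC replicates 1 to 4, at 11.8, 10.7, 12.7 and 11.8 in shStau2, and at 12.5, 13.9, 13.5 and 12.1 in shPum2. The value of shNTC replicate 2 was the lowest of the 12, and the other 11 lay between 10.7 and 13.9 CPM. The observed coefficient of variation was 7.18% in shStau2 and 6.41% in shPum2, no more than the 13.9% and 13.2% that counting alone would give, and 22.0% in shNTC. Log2 fold changes were -0.02 in shStau2 against shNTC (SE 0.17, edgeR adjusted p = 0.984, interval -0.38 to 0.35), 0.13 in shPum2 against shNTC and -0.14 in shStau2 against shPum2. In the last comparison miR-877 was lower in 4 of 4 same-numbered pairs and did not pass (edgeR adjusted p = 0.827, interval -0.51 to 0.22). In shPum2 against shNTC it was higher in 1 same-numbered pair and lower in 3, against the sign of the fold change. Without shNTC replicate 2, the difference between shPum2 and shNTC was 0.00.

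**Figure D2:**
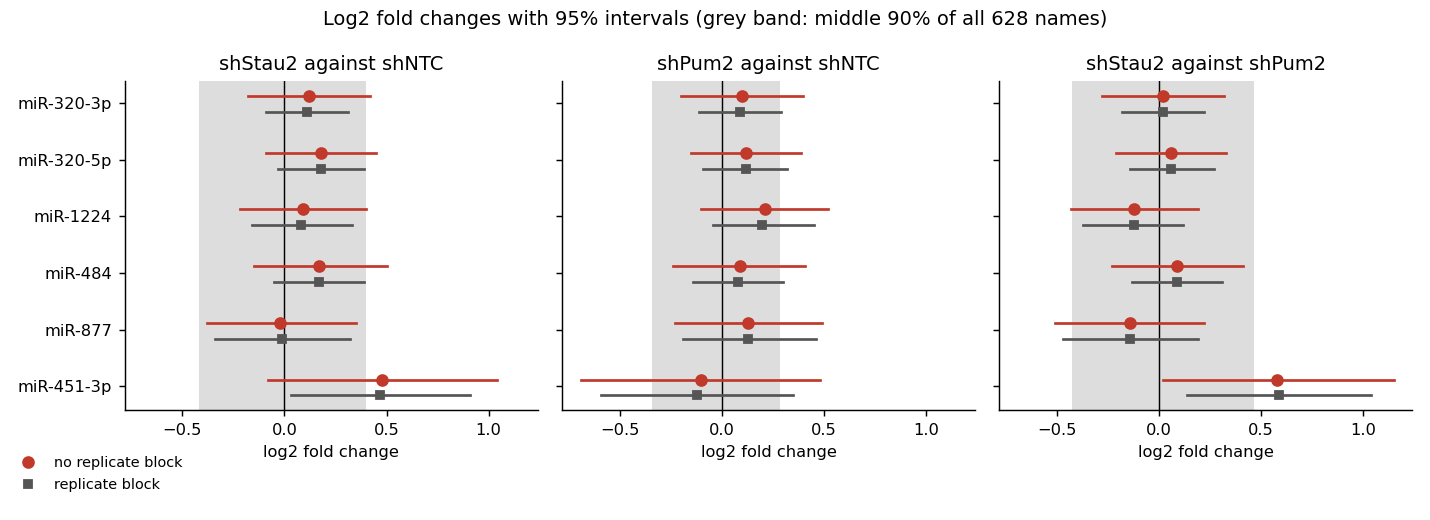
Log2 fold change (horizontal axis) of the 6 names in the fit (vertical axis) in the 3 comparisons, with 95% intervals, without (red circles) and with (grey squares) the replicate number as a block. The grey band holds the middle 90% of the log2 fold changes of all 628 names without the block, for example -0.42 to 0.40 in shStau2 against shNTC. Only miR-451-3p lies outside a band, in the 2 comparisons with shStau2.

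The Dicer-independent hairpin gave a different picture by arm. Its known product, miR-451-5p, was nearly absent: it had 17 counts in shNTC replicate 2, 10 in shNTC replicate 3, 6 in shPum2 replicate 2, 6 in shPum2 replicate 3, and 0 in the other 8 libraries. All 4 libraries with counts thus bore the number 2 or 3, and all 4 shStau2 libraries were at 0. Over the group, the 27 counts of shNTC stood for 1.46 CPM without TMM scaling (exact Poisson 95% interval 0.962 to 2.12) and the 12 counts of shPum2 for 0.681 (0.352 to 1.19). For the 0 counts of shStau2 the exact Poisson upper limit was 0.204 CPM, and the floor of 3 counts over the group stood for 0.166 CPM. These intervals and the floor cover counting error only, and libraries of the same group differed by more than that. The low-count filter removed miR-451-5p, and without that filter it did not pass in shStau2 against shNTC (edgeR adjusted p = 0.35, unadjusted p = 0.0291). Zeros in many libraries were not particular to it. Of the 685 miRNA names, 28 (4.09%) were at 0 in at least 6 libraries and had at least 10 counts in another. That count took no account of group or replicate number, so it does not show how common zeros confined to certain groups or numbers are.

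The 3p arm of the same hairpin was counted in all 12 libraries and exceeded miR-451-5p in each. It had 35, 25, 38 and 17 counts in shNTC replicates 1 to 4, 38, 22, 44 and 45 in shStau2, and 34, 15, 28 and 24 in shPum2. In CPM these were 6.90, 5.41, 7.45 and 4.33 for shNTC, 8.62, 5.10, 9.49 and 10.8 for shStau2, and 7.86, 3.72, 5.81 and 5.19 for shPum2. The 3 highest values were shStau2 libraries, while shStau2 replicate 2 lay below 3 of the 4 shNTC libraries, so the groups overlapped. Means were 8.50 ± 2.44 CPM for shStau2, 6.02 ± 1.42 for shNTC and 5.64 ± 1.72 for shPum2 (SD, n = 4). The sources used here do not say how the authors' counting divided reads between the arms. The slicing described above yields miR-451-5p, so miR-451-3p is a member by its name only. The route by which its counts arose was not tested.

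Among the 6 names in the fit, the largest fold changes in the comparisons with shStau2 were those of miR-451-3p, and they did not pass. In shStau2 against shPum2 it was 0.58 (SE 0.27, unadjusted p = 0.0445, edgeR adjusted p = 0.499), higher in 4 of 4 same-numbered pairs. In shStau2 against shNTC it was 0.48 (SE 0.26, unadjusted p = 0.0865, edgeR adjusted p = 0.509), higher in 3 of 4 pairs. With the replicate block the first value was 0.59 (SE 0.21, interval 0.14 to 1.04, edgeR adjusted p = 0.128). The second was 0.47 (SE 0.21, interval 0.03 to 0.91, edgeR adjusted p = 0.194). The interval without the block ran from 0.02 to 1.15 in the first comparison and from -0.08 to 1.04 in the second. These intervals, with or without the block, carry no adjustment over all names. After that adjustment a change of that range was not told from none. In shPum2 against shNTC the value was -0.10 (interval -0.69 to 0.48).

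Other miRNAs of red blood cells stood beside these values as follows. From the transcript shared with miR-451, miR-144-5p had 4 to 16 counts per library, with means of 1.95 ± 1.08 CPM for shNTC, 2.32 ± 1.04 for shStau2 and 1.88 ± 0.640 for shPum2 (SD, n = 4). The name miR-144-3p was not among the 685 miRNA names. The more widely expressed miR-486, also found in muscle, stood at 296 ± 47.6, 352 ± 35.1 and 296 ± 52.9 CPM in the same order, and its log2 fold change in shStau2 against shNTC was 0.25 (SE 0.14, edgeR adjusted p = 0.544). Of the 3 marker names in the tables, 2 were in the fit and 0 passed in any comparison. Their summed level was 241 to 352 CPM for shNTC, 315 to 386 for shStau2 and 235 to 363 for shPum2, nearly all of it miR-486, and miR-451-5p was the marker at 0 in all shStau2 libraries. The part of red blood cells in the miR-451-3p values was not tested. Of 6 white blood cell and microglia markers 5 were in the fit, with a summed level of 201 to 397 CPM for shNTC, 142 to 275 for shStau2 and 226 to 336 for shPum2. In shStau2 against shNTC 0 of the 5 were called without the replicate block and 1 with it, miR-155-5p, which fell by 0.54 on the log2 scale (edgeR adjusted p = 0.00119). In shStau2 against shPum2 the counts were 0 and 2. With the block miR-155-5p fell there by 0.61 (edgeR adjusted p = 0.000697) and miR-142-3p by 0.49 (edgeR adjusted p = 0.0388). Of all 628 names, the block gave calls for 6.21% in shStau2 against shNTC and 3.98% in shStau2 against shPum2.

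**Figure D3:**
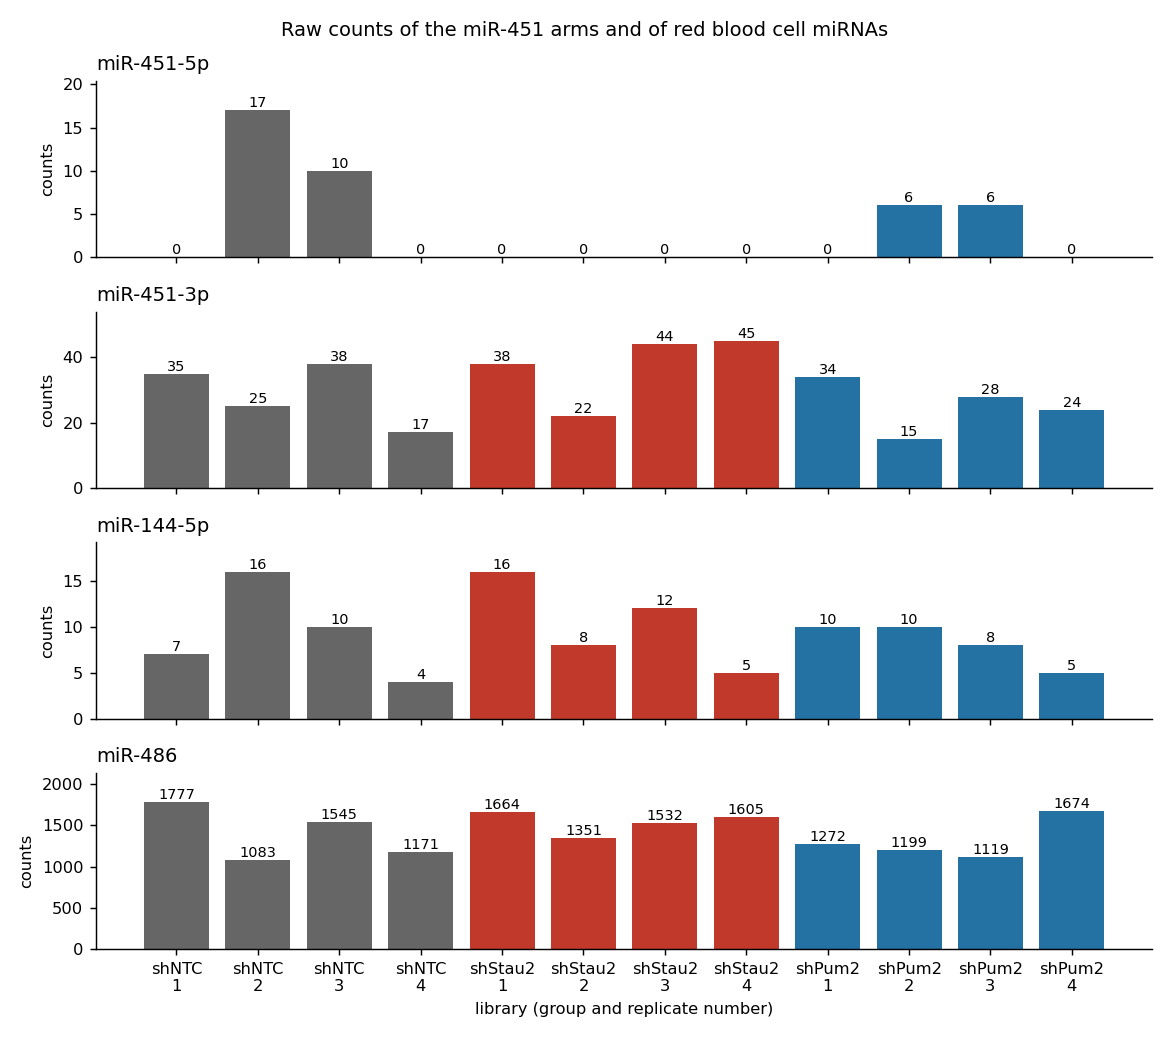
Raw counts (vertical axes) of miR-451-5p, miR-451-3p, miR-144-5p and miR-486 in each of the 12 libraries (horizontal axis, coloured by group). Counts of miR-451-5p appear in replicates 2 and 3 of shNTC and shPum2 only, while miR-451-3p has 15 to 45 counts in every library.

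None of the names passed in any comparison, and no test of the set as a whole was run. In shStau2 against shNTC 0 of the 6 names in the fit were called at an edgeR adjusted p of 0.05, beside 2 of all 628 names (0.318%). The same count was 0 of 6 beside 0 of 628 (0%) in shPum2 against shNTC and 0 of 6 beside 3 of 628 (0.478%) in shStau2 against shPum2. With the replicate block 0 of 6 were called in each, beside 6.21%, 0.159% and 3.98% of all names, and DESeq2 called 0 of 6 in each as well. At an unadjusted p of 0.05 the counts without the block were 0, 0 and 1 of 6, and 71, 9 and 59 of all 628. With the block they were 1, 0 and 1 of 6, each time miR-451-3p, and 141, 46 and 124 of all 628. With so few names, 0 called is close to what the background share gives.

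The median log2 fold change of the 6 names was 0.15 in shStau2 against shNTC, where the median of all 628 was 0.00, with 5 of 6 above 0 against 50.5% of all names. It was 0.11 against 0.00 in shPum2 against shNTC, again with 5 of 6 above 0, and 0.04 against 0.01 in shStau2 against shPum2, with 4 of 6. The first 2 comparisons share the shNTC libraries. The name not above 0 was miR-877 in the first and miR-451-3p in the second. Leaving miR-451-3p aside, the 95% intervals of the other 5 names in shStau2 against shNTC lay within -0.38 and 0.50 on the log2 scale, or 0.768-fold to 1.41-fold. For these 5 names the data therefore bound a change more closely than for miR-451-3p, whose interval reached 2.06-fold.

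Further small RNAs that come from hairpins outside the canonical set are miR-1839 and miR-664, whose precursors overlap H/ACA RNAs, the guides of RNA pseudouridylation. Of their 5 names, 0 were called in any comparison with or without the block, and the median log2 fold change in shStau2 against shNTC was -0.06. The most abundant, miR-1839-5p, had means of 528 ± 66.0 CPM for shNTC, 516 ± 23.4 for shStau2 and 486 ± 52.3 for shPum2 (SD, n = 4). As a contrast to the mirtrons, 10 intronic miRNAs that Drosha does cut, counted under 9 names in the tables, had a median of -0.02 in shStau2 against shNTC, and 0 were called. Of 10 canonical neuronal miRNAs 0 were called without the block, and with it 2 rose in shStau2 against shNTC and against shPum2: miR-125a-5p (0.32 and 0.27) and miR-125b-5p (0.25 and 0.23), the mammalian relatives of worm lin-4. Among all 628 names the block gave calls for 6.21% in shStau2 against shNTC and 3.98% in shStau2 against shPum2. No difference between these lists was tested.

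Across the 12 libraries the names did not all move together. The closest pair was miR-320-5p with miR-484, with a Pearson r of 0.85 and a Spearman rho of 0.85 on log2 CPM, and an r of 0.76 without the 2 libraries farthest from the median of miR-484. Both were highest in replicate 2 of shStau2 and of shPum2 and lowest in shNTC replicate 3. In contrast, the 2 arms of miR-320 had an r of 0.11 and a rho of 0.20, although they come from the same hairpin. Without the 2 libraries farthest from the median of miR-320-5p that r was 0.42, and without those of miR-320-3p it was 0.08. The observed coefficient of variation of miR-320-5p was 6.34% in shNTC, 9.65% in shStau2 and 14.6% in shPum2. Counting alone would give 6.66%, 6.45% and 6.54%, so counting error limits what this r can show. The mirtrons miR-1224 and miR-877 had an r of 0.05. Between these, miR-1224 had an r of 0.50 with miR-484, 0.45 with miR-320-3p and 0.42 with miR-320-5p. That of miR-320-3p with miR-484 was 0.39. The low-count miR-451-3p had an r of -0.48 with miR-320-5p, -0.35 with miR-484 and 0.33 with miR-320-3p. These are descriptions over libraries that share replicate numbers and scaling, and carry no test.

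**Figure D4:**
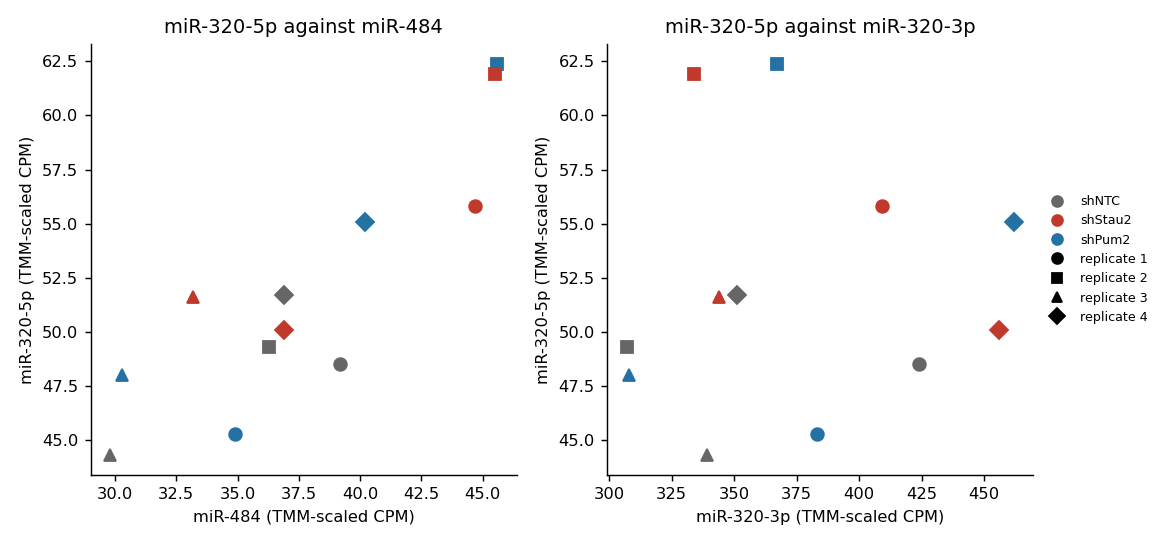
Level of miR-320-5p (vertical axes, TMM-scaled CPM) against miR-484 (left) and against miR-320-3p (right) in the 12 libraries, coloured by group with a symbol for each replicate number. The points follow a rising line with miR-484 (r = 0.85) and scatter with miR-320-3p (r = 0.11).

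For each member, the 3 most like names over the 12 libraries came from 447 or 448 candidates with a mean of at least 10 CPM. They were picked as the highest of these, so the values below carry no test. For miR-320-3p they were miR-486 (Pearson r = 0.86), miR-762 (0.83) and miR-540-3p (0.83), and for miR-320-5p they were miR-484 (0.85), miR-127-3p (0.79) and miR-671 (0.78). For miR-484 they were miR-668 (0.88), miR-23a-5p (0.86) and miR-3593-5p (0.86), and for miR-1224 they were miR-760-3p (0.76), miR-770-3p (0.76) and miR-370-3p (0.75). The partners of miR-877 were miR-30c-5p (0.80), miR-505-3p (0.79) and miR-149-5p (0.76), with lower rank correlations of 0.56, 0.45 and 0.50. Those of miR-451-3p were let-7e-3p (0.78), miR-384-3p (0.76) and let-7b-3p (0.74). The partners of the GC-rich miR-1224 had 70.0%, 70.6% and 68.2% GC, in the order given, while those of miR-877, GC-rich as well, had 43.5%, 50.0% and 60.9%. The partners of miR-451-3p had 54.5%, 27.3% and 50.0% GC. Those of miR-320-5p had 63.6%, 59.1% and 66.7%. For miR-320-3p, miR-762 had 83.3% and miR-540-3p 63.6%, and for miR-484, miR-668 had 66.7%. The remaining partners had no sequence here. The median over all mature names was 47.8%.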

How the data were processed

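Small RNA of 12 libraries, 4 per group, was analysed from deposited tables of whole-number counts per small RNA name. Per the labels' protocols the library kit adds unique molecular identifiers. The sources used here give neither the aligner and counter nor whether molecules or reads were counted. Per the submitters' processing notes the authors used genome build Rnor 6.0. The 120 piRNA names (0.684 to 0.989% of counts) stayed out of library sizes and tests. The 685 miRNA names were filtered with filterByExpr by group, leaving 628, and tested with edgeR 4.0.16 in R 4.3.3 (TMM, quasi-likelihood test, robust, 1 model of the 3 groups over all 12 libraries, two-sided, Benjamini-Hochberg over the 628, threshold 0.05). DESeq2 1.42.0, other scalings and filters, a replicate block and leaving out libraries were alternatives. The fitting procedure was tested on simulated data. No 2 libraries held identical counts. Whether replicates came from separate cultures beyond the label is not given, and p-values measure the spread between these libraries.

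Same-numbered libraries deviated together from their group means (r 0.36 to 0.57 over 12 pairs, against -0.41 to 0.14 over 36 other pairs), so the numbers pair the libraries by the data. Likeness used log2 CPM (prior count 2). Named were all members, the 3 names most like each, list members that were called or most abundant, red blood cell markers, and other cell type markers called in either fit (with or without the block). Members and lists were chosen with earlier results of these data known. Sequences, their positions and neighbours are from RefSeq tables of assembly GRCr8, and no position was taken across builds.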

Additional observations from a re-analysis of the deposited data

How the results depend on the processing

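Over 483 refits of the 18 log2 fold changes of the members, 0 passed the threshold (smallest adjusted p = 0.106), 450 kept their direction and 33 reversed, the latter no farther than 0.07 from 0. Upper-quartile factors gave 0.00 for miR-877 in shStau2 against shNTC (0.01 with the replicate block). For miR-320-3p in shStau2 against shPum2, library totals gave -0.04 with or without the block, and a fit of the compared groups only gave 0.00. Leaving out libraries, with and without the block, gave ranges that spanned 0 for 8 values. In shStau2 against shNTC these were -0.05 to 0.23 for miR-1224 and -0.17 to 0.06 for miR-877. In shPum2 against shNTC they were -0.01 to 0.19 for miR-320-3p, -0.28 to 0.06 for miR-451-3p and -0.03 to 0.22 for miR-877. In shStau2 against shPum2 they were -0.07 to 0.13 for miR-320-3p, -0.03 to 0.12 for miR-320-5p and -0.02 to 0.16 for miR-484. The members called stayed at 0 under all 27 alternatives, the replicate block included. With a mean of at least 10 CPM required, miR-451-3p gave no value.

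The counts over all names moved more. In shStau2 against shNTC the 2 calls became 10 with DESeq2, 39 with the replicate block (35 with DESeq2, 39 with library totals, 38 with upper-quartile factors), and 1 to 27 when libraries were left out. In shPum2 against shNTC the 0 calls became 1 with the block (2 with DESeq2, 1 with library totals, 1 with upper-quartile factors), and 0 to 2 on leaving out libraries. In shStau2 against shPum2 the 3 calls became 7 with DESeq2, 0 when only the compared groups were fitted, 0 under upper-quartile scaling, 25 with the block (28 with DESeq2, 26 with library totals, 40 with upper-quartile factors), and 0 to 51 on leaving out libraries. Without the block, the single library that moved the count of shStau2 against shNTC by over 1.5 times was shStau2 replicate 3 (1 call without it). That of shStau2 against shPum2 was 0 when any of these was left out: numbers 1, 3 and 4 of shPum2, numbers 2, 3 and 4 of shStau2, and numbers 1 and 3 of shNTC. With the block, leaving out number 1, 2, 3 or 4 gave 23, 23, 27 and 5 calls in shStau2 against shNTC, and 6, 51, 7 and 10 in shStau2 against shPum2. The cause was not tested. The counts of 15 to 45 for miR-451-3p and 37 to 70 for miR-877 limit their precision most. For miR-451-5p no fold change is given, since 8 of 12 libraries were at 0.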
